A study of Rattus norvegicus with 10 samples.

Results

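A set of 9 circular RNAs (circRNAs) gave more signal in the submandibular gland of hypertensive rats than of control rats, and these 9 of the array's 14145 circRNA probes are described here. They were chosen by that very difference: each had an adjusted p under 0.05 in limma and a higher mean in the hypertensive strain, so their differences between strains are given as a description, with no test. The samples were glands of male rats aged 14 weeks. One group of 5 arrays came from Spontaneously Hypertensive (SHR) rats and the other 5 arrays from Wistar Kyoto (WKY) rats, the normotensive strain from whose stock SHR was bred. No treatment or transgene is given for either group, the WKY rats were matched for age and weight, and the labels do not say whether an array held RNA of a single gland. Because both groups are inbred strains, hypertension and every other inherited difference between SHR and WKY cannot be told apart here.

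CircRNAs form when the spliceosome joins the end of an exon back to the start of the same or an earlier exon, which closes the RNA into a ring. Without free ends they resist exonucleases and can outlast the linear transcripts of their host gene. Some circRNAs bind microRNAs or proteins, while for most no function is known. The submandibular gland secretes saliva from acinar cells through a duct system and, in rodents, also stores growth factors and kallikreins in its ducts. Before labelling, the RNA had been treated with RNase R, an exonuclease that removes linear RNA, so the signal of a circRNA probe stands for RNA that withstood digestion. The host genes, genome positions and probe sequences of the 9 circRNAs are not given in the sources used here, and they are named by their array identifiers only.

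The arrays gave strong signal throughout. After background subtraction the median circRNA signal lay between 65.4 and 162 intensity units per array, and negative control spots had medians of 1.02 to 2.76. Saturation was marked for 0 non-control spots. Of 13 genes fixed as markers of gland acini and ducts, 0 were among the 38 named transcripts on the array, so the labelled tissue was not checked against markers. In whole-gland RNA, more cells of a type and more RNA per cell cannot be told apart. By the scan records in the file headers the arrays came from 3 scans, each taken here as a slide. A shared slide held 5 WKY arrays and the SHR arrays SHR2-1, SHR2-3 and SHR3-1, while SHR3-3 and SHR3-4 each came from a scan of their own. The scan records used here do not show whether SHR3-3 and SHR3-4 lay on the same slide. Values are given as levels, meaning the log2 signal of a probe minus the 75th percentile of all non-control probes on its array. A level of 0 is therefore a probe brighter than 75 percent of the others. Probes differ in how well they bind, so levels order the spots on an array and not the amounts of the RNAs.

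The 9 circRNAs fell into 6 bright spots and 3 much dimmer ones, with an empty stretch of the scale between them. Averaged over 10 arrays, the levels of the brighter 6 ran from 3.44 (ASCRPR005960) to 5.10 (ASCRPR003230), and those of the dimmer 3 from -1.52 (ASCRPR009271) to 0.04 (ASCRPR008220). The mean of the 6 exceeded the mean of the 3 by 5.48 ± 0.18 log2 units in SHR and by 5.05 ± 0.19 in WKY (SD, n = 5 each). The split is by measured level and was made with the values known, so it carries no test. On every array the lowest of the 6 was above the highest of the 3, by at least 2.40 in WKY and 3.56 in SHR.

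**Figure D1:**
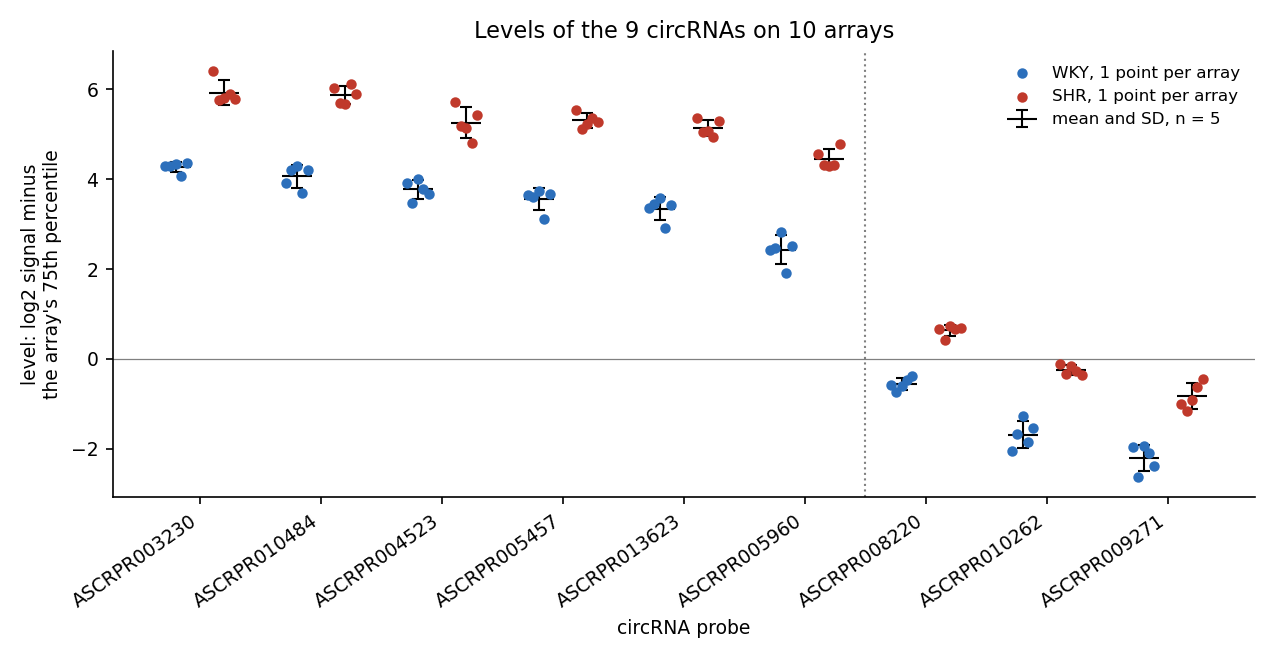
Level (log2 signal minus the array's 75th percentile, vertical axis) of the 9 circRNAs (horizontal axis, 6 brighter left and 3 dimmer right of the dotted line) on each of 5 SHR and 5 WKY arrays; bars give mean and SD. For each circRNA all SHR points lie above all WKY points, and the lowest level on the left, 1.92, is above the highest on the right, 0.73.

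Among the brighter 6, ASCRPR003230 was the brightest spot on average. Its levels on the SHR arrays were 6.41 (SHR2-1), 5.76 (SHR2-3), 5.80 (SHR3-1), 5.89 (SHR3-3) and 5.79 (SHR3-4). On the WKY arrays they were 4.30 (WKY1-2), 4.28 (WKY1-3), 4.34 (WKY1-5), 4.08 (WKY4-1) and 4.35 (WKY4-2). SHR2-1 stood above the other SHR arrays and WKY4-1 below the other WKY arrays. The mean was 5.93 ± 0.27 for SHR and 4.27 ± 0.11 for WKY (SD over 5 arrays), a difference of 3.15-fold (95% interval 2.37 to 4.19).

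ASCRPR010484 had nearly the same brightness. In SHR its levels were 6.02, 5.69, 5.68, 6.13 and 5.89 in the order of arrays just given, and in WKY they were 3.91, 4.20, 4.29, 3.70 and 4.20. SHR3-3 was the highest SHR array here and WKY4-1 again the lowest WKY array. The difference was 3.53-fold (2.64 to 4.74), and the lowest SHR array exceeded the highest WKY array by 1.39.

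For ASCRPR004523 the levels in SHR were 5.72, 5.19, 5.13, 4.81 and 5.43, and in WKY 3.93, 3.47, 4.01, 3.79 and 3.68. It was the most variable of the brighter 6 in SHR, with an SD of 0.34 (n = 5), and the strains lay closest together, 0.80 apart between the lowest SHR array (SHR3-3) and the highest WKY array (WKY1-5). Its difference was 2.79-fold (2.02 to 3.85), the smallest of the 6. Before scaling it was also the only one of the 6 whose signals overlapped: SHR3-3 had 3983 intensity units and WKY4-1 had 4374, the array with the highest 75th percentile of all 10.

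ASCRPR005457 and ASCRPR013623 had similar levels. The levels of ASCRPR005457 were 5.54, 5.12, 5.22, 5.37 and 5.28 in SHR and 3.65, 3.60, 3.75, 3.12 and 3.66 in WKY. Those of ASCRPR013623 were 5.36, 5.04, 5.08, 4.94 and 5.29 in SHR and 3.37, 3.45, 3.58, 2.91 and 3.42 in WKY. In both, WKY4-1 lay well below the other 4 WKY arrays, and SHR2-1 was the highest SHR array. They parted on SHR3-3, the second highest SHR array for ASCRPR005457 and the lowest for ASCRPR013623. ASCRPR005457 differed 3.37-fold (2.53 to 4.48) between strains and ASCRPR013623 3.48-fold (2.60 to 4.65).

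ASCRPR005960 was the dimmest of the 6 and had the largest fold of the 9. Its levels were 4.55, 4.32, 4.28, 4.31 and 4.78 in SHR and 2.43, 2.47, 2.83, 1.92 and 2.52 in WKY. SHR3-4 was the highest and WKY4-1 the lowest array of its strain. The difference was 4.04-fold, with a 95% interval of 2.94 to 5.57, and the strains were 1.45 apart at their nearest arrays.

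The dimmer 3 lay near or below the 75th percentile but above the blank signal. Over all arrays their signal was at least 20.2 times the median of the negative control spots (ASCRPR009271), 35.9 times (ASCRPR010262) and 81.1 times (ASCRPR008220). The brighter 6 were at least 602 times above it. Both signals in these ratios are background-subtracted, which leaves the controls near 0. Before subtraction, the dimmest spot of ASCRPR009271 (WKY4-2) had a median of 44 over a local background of 16. All 9 were well above background on 10 of 10 arrays by the scanner program's mark, as were 13430 of the 14145 circRNA probes. The 9 had 0 outlier marks. The error that program gives for a spot was at most 11.1 percent of its signal, reached by ASCRPR009271.

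ASCRPR008220 had the smallest SD of the 9 when pooled over both strains (0.13), though not in either strain alone. Its levels were 0.67, 0.42, 0.73, 0.66 and 0.69 in SHR and -0.59, -0.74, -0.61, -0.48 and -0.37 in WKY. It crossed the 75th percentile of the array between strains, above it on all SHR arrays and below it on all WKY arrays. The fold, 2.28 (1.77 to 2.95), was the smallest of the 9. Its unscaled signals overlapped narrowly, with 224 intensity units on SHR3-3 and 227 on WKY4-1.

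ASCRPR010262 had levels of -0.12, -0.33, -0.15, -0.27 and -0.37 in SHR, a narrow range. In WKY it spread more widely, at -2.06, -1.68, -1.28, -1.86 and -1.55. The SD was 0.11 in SHR and 0.30 in WKY (n = 5 each), and the difference was 2.70-fold (2.02 to 3.62).

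ASCRPR009271, the dimmest member, had levels of -0.998, -1.16, -0.92, -0.62 and -0.46 in SHR and -1.96, -2.62, -1.94, -2.10 and -2.38 in WKY. The 2 highest SHR arrays, SHR3-3 and SHR3-4, are those that were scanned apart from the shared slide. The difference was 2.59-fold (1.87 to 3.58). On the log2 scale it was 1.37 over all arrays and 1.18 within the shared slide, which leaves those arrays out. Signals of the 7 members other than ASCRPR004523 and ASCRPR008220 did not overlap between strains before any scaling either. The share of all circRNAs with unscaled signals so separated was not computed, and the members were chosen by their difference between strains.

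Rank on an array is not changed by subtracting that array's percentile, and it differed between strains as the levels did. In SHR the brighter 6 were among the brightest circRNA spots: the median rank of ASCRPR010484 was 30 of 14145, with ranks from 17 (SHR3-4) to 90 (SHR2-3). In WKY its median rank was 161 (111 to 272). ASCRPR003230 had a median rank of 34 in SHR and 151 in WKY, ASCRPR005457 of 60 and 230, ASCRPR004523 of 70 and 225, ASCRPR013623 of 81 and 263, and ASCRPR005960 of 131 and 536. All 6 thus lay within the top 0.93 percent by median rank in SHR and within the top 3.79 percent in WKY. For each of the 6 the worst SHR rank was better than the best WKY rank. How many of all circRNA probes had ranks so separated was not computed, and the 6 were chosen by their difference between strains. The order of arrays was alike across the 6: SHR3-4 had the best SHR rank and SHR2-3 the worst for each of them, and WKY4-1 the worst WKY rank. It was not the order by level: ASCRPR003230 had its highest SHR level on SHR2-1, where its rank was 44, against 19 on SHR3-4. Arrays differed in the interquartile range of log2 circRNA signal. It was 2.50 on SHR3-4, 1.90 on SHR2-3, 1.56 on SHR3-3, 2.27 on WKY1-3 and 1.79 on WKY4-1. Its part in the order of ranks was not tested.

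The dimmer 3 travelled over a larger part of the ranking, since spots crowd together at middle levels. ASCRPR008220 had a median rank of 2142 in SHR and 5292 in WKY, and ASCRPR010262 of 4495 and 8834. ASCRPR009271 went from 6135, above the middle of the ranking, to 11503, where 81.3 percent of circRNA probes were as bright or brighter. Its ranks spread from 4729 to 7561 in SHR.

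**Figure D2:**
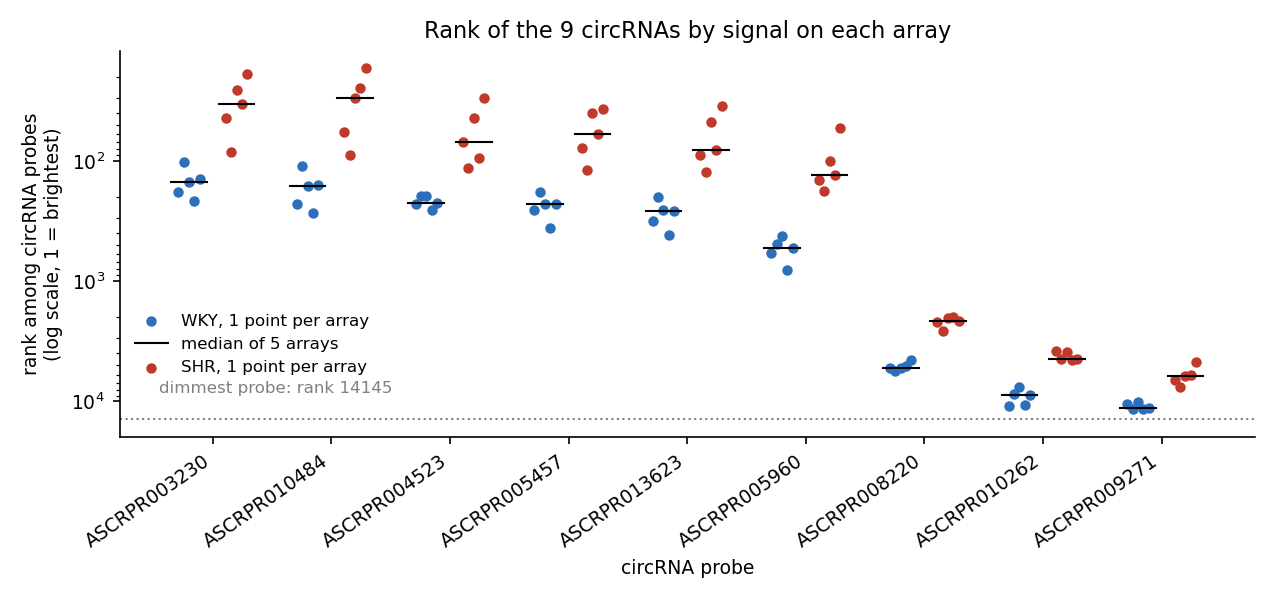
Rank of each of the 9 circRNAs among 14145 circRNA probes by signal (vertical axis, log scale, 1 is the brightest) on 5 SHR and 5 WKY arrays; the line marks the median of the 5. The 6 brighter circRNAs have median ranks of 30 to 131 in SHR and 151 to 536 in WKY, and the best rank of the 3 dimmer ones on any array is 1993.

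All 9 were called higher in SHR at an adjusted p under 0.05 in limma by the rule that chose them, where 0.0638% of 14099 tested circRNAs were so called, and these are the same 9. All 9 had every SHR array above every WKY array, as did 0.518% of the 13908 circRNAs with a value on each array (72 circRNAs). The median log2 fold change of the 9 was 1.66, beside -0.04 for all tested circRNAs. Just inside the threshold was ASCRPR009271 with an adjusted p of 0.0387 in limma, and just outside it in the same direction was ASCRPR013444 with 0.179. ASCRPR013444 had a log2 fold change of 1.40 (SE 0.27), as large as those of the dimmer 3, with means of 2.83 ± 0.49 for SHR and 1.42 ± 0.37 for WKY (SD over 5 arrays), and its strains did not overlap. Next came ASCRPR001714 at 1.31 (SE 0.27, adjusted p = 0.269 in limma) and ASCRPR000754 at 1.25 (SE 0.27, adjusted p = 0.329), the latter with an SHR array at -0.87 just below a WKY array at -0.86.

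The 9 were not the 9 largest fold changes. Ordered by log2 fold change among the 13908, ASCRPR005960 was number 2, ASCRPR010484 number 3, ASCRPR013623 number 4 and ASCRPR005457 number 5, while ASCRPR008220 was number 20. Each member varied little within strains, at an SD of 0.13 (ASCRPR008220) to 0.29 (ASCRPR009271), where the median circRNA had 0.46. The choice by an adjusted p favours a small spread, so this is part of how they were chosen.

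The brighter 6 were also set beside other spots of their brightness. This is a description, since a large difference for a small spread is how they were chosen. Of the 13908 circRNAs, 168 had a mean level within the range of the 6, and the 6 themselves are counted in it. The median log2 fold change of these 168 was -0.36, and only the 6 members exceeded 1. The median SD within strains of the 168 was 0.86, against 0.21 to 0.28 for the 6. The range ends at the dimmest of the 6. Just below it, at a mean level of 3.24, ASCRPR000410 had a log2 fold change of 1.53, with an adjusted p of 0.9999 in limma. Between the levels of the 2 sets lay 3080 circRNAs, of which 0 were called higher in limma at an adjusted p under 0.05, although 10 had a log2 fold change above 1 and 10 had strains that did not overlap. In the level range of the dimmer 3 lay 5339 circRNAs, of which 13 had a log2 fold change above 1.

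**Figure D3:**
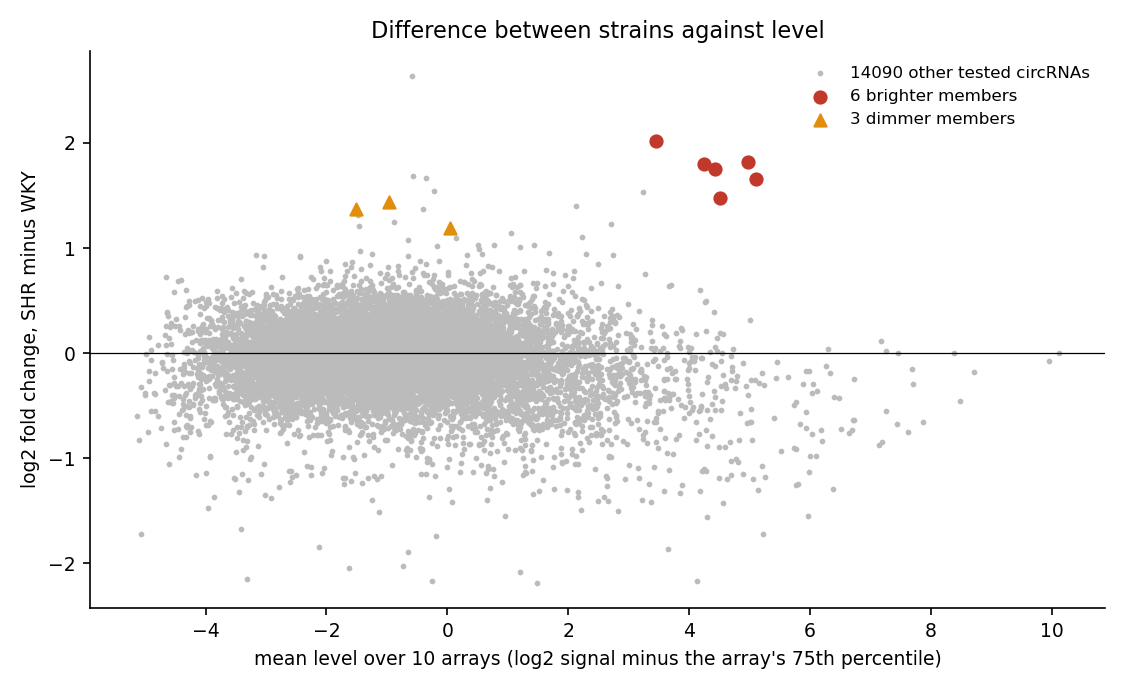
Log2 fold change (SHR minus WKY, vertical axis) against mean level over 10 arrays (horizontal axis) for all tested circRNAs, with the 6 brighter members as red circles and the 3 dimmer ones as orange triangles. The 6 lie alone above the cloud at levels of 3.44 to 5.10, a range set by the 6 themselves, where the median fold change is below 0. The 3 lie at the cloud's upper edge at levels of -1.52 to 0.04.

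How far the fold changes of the brighter and the dimmer members lay apart depended on how the signals were processed. From the processed signal the log2 fold changes were 1.48 to 2.02 in the 6 and 1.19 to 1.44 in the 3. From the authors' values they were 1.99 to 2.48 in the 6 and 0.62 to 0.82 in the 3. Starting from spot and background medians with normexp, a background model, and quantile normalization gave 1.80 to 2.30 and 0.68 to 0.85. The mean difference between the sets was 0.42 log2 units from the processed signal, 1.54 in the authors' table and 1.31 with normexp. Normexp adds a constant of 50 intensity units to every spot, which shrinks the folds of dim spots by construction. How the authors' table was made is not stated in the sources used here. Some of its log2 values recur exactly on different arrays, such as 11.8757 for ASCRPR010484 on WKY1-5 and WKY4-2. Whether it shares a scaling step with the other settings was not tested, so it is not counted as independent of them. Quantile normalization of the processed signal, which adds no constant, raised the brighter members to between 1.86 and 2.31 and gave 1.48 (ASCRPR010262) as the highest of the dimmer ones, against 1.44 without it.

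In the authors' deposited table the direction was the same for all 9, and again each member's SHR arrays all lay above its WKY arrays, as for 0.503% of circRNAs there. ASCRPR010484 had log2 values of 13.74 (SHR2-1), 13.05 (SHR2-3), 14.46 (SHR3-1), 14.08 (SHR3-3) and 14.97 (SHR3-4), and in WKY 11.54 (WKY1-2), 12.51 (WKY1-3), 11.88 (WKY1-5), 11.18 (WKY4-1) and 11.88 (WKY4-2). The spread within SHR was thus 0.73 (SD, n = 5), against 0.20 from the processed signal. ASCRPR010262 had 7.97, 7.76, 7.92, 7.92 and 7.83 in SHR and 6.88, 7.14, 7.27, 6.90 and 7.17 in WKY, with an SD of 0.09 in SHR. The 6 had larger folds and a wider spread in that table, and the 3 smaller folds with an SD in SHR of 0.09 to 0.19. From it limma called ASCRPR005960, ASCRPR008220 and ASCRPR010262, which are 3 of the 9 (background 0.0213%), and the same number was called with normexp (also 0.0213%). With a variance prior that follows the level and robust estimation of it, changed together, 4 of the 9 were called on the processed signal (background 0.0284%). These were the dimmer 3 and ASCRPR005960. The SE of the 6 was 0.31 to 0.36 there, against 0.19 to 0.21 with a single, not robust prior.

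**Figure D4:**
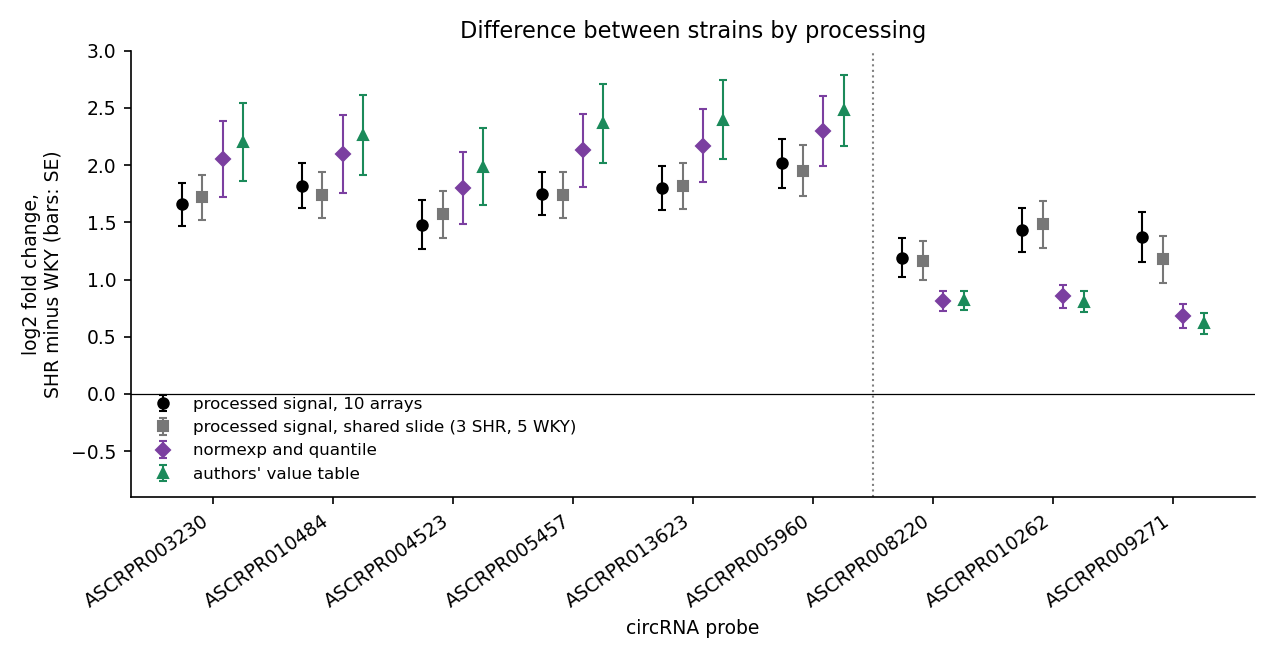
Log2 fold change (SHR minus WKY, vertical axis) of the 9 circRNAs from the processed signal over 10 arrays, within the shared slide, with normexp and quantile normalization, and in the authors' value table; bars are SE. The 6 brighter members, left of the dotted line, are higher in the latter pair (1.80 to 2.48) than from the processed signal (1.48 to 2.02), and the 3 dimmer ones are lower (0.62 to 0.85 against 1.19 to 1.44).

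Within the shared slide, with 3 SHR and 5 WKY arrays, 7 of the 9 were called, with 0.0567% of circRNAs called there. The log2 fold changes were 1.57 (ASCRPR004523) to 1.95 (ASCRPR005960) in the brighter 6 and 1.16 (ASCRPR008220) to 1.48 (ASCRPR010262) in the dimmer 3. ASCRPR008220 and ASCRPR009271 lost their calls, at an adjusted p of 0.0614 and 0.181 in limma. On that slide WKY4-2 shared a row with the 3 SHR arrays, and the other WKY arrays filled the other row. With the row as a block, 6 of the 9 were called (background 0.0426%). With slide and row together 0 were called, and 0% of circRNAs; their log2 fold changes were then 0.98 to 1.87 with SEs of 0.28 to 0.37, and 9 of 9 passed an unadjusted p under 0.05 with at least 1.5-fold in limma (107 circRNAs did). In that last fit the comparison rests on 3 SHR arrays and WKY4-2 alone, since no other slide and row held both strains.

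Quantile normalization called 7 of the 9 (background 0.0496%). All 9 were called without a filter (0.0636%), with a filter for detection on 10 arrays (0.067%), with array weights (0.241%) and with the first number of the array names as a random block (0.0709%), and all 9 had an unadjusted p under 0.05 with at least 1.5-fold (0.908%). Without 1 array, 5 of the 9 were called when it was SHR2-1, SHR3-1, WKY1-2, WKY1-3, WKY4-1 or WKY4-2 (0.0355%), 6 when it was WKY1-5 (0.0426%), 7 when it was SHR2-3 or SHR3-4 (0.0497%) and 8 when it was SHR3-3 (0.0568%). ASCRPR003230, ASCRPR010484, ASCRPR005457, ASCRPR013623 and ASCRPR005960 kept an adjusted p under 0.05 in limma without any one of the 10 arrays. ASCRPR004523 lost its call without each of 9 arrays (all but SHR3-3), ASCRPR008220 without 7, ASCRPR010262 without 6 and ASCRPR009271 without all 10. Fold changes moved little: the log2 fold change of ASCRPR009271 ranged from 1.27 (without WKY1-3) to 1.45 (without SHR2-3). The 9 lie on spots scattered over the array, from row 16 to 186 and column 9 to 80, each with 1 spot, and the nearest pair, ASCRPR005457 and ASCRPR005960, was 10 rows and 11 columns apart.

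Within strains, the brighter 6 tended to be high or low on the same arrays. Of the dimmer 3, ASCRPR008220 and ASCRPR009271 did not follow them closely. Since 5 arrays per strain are too few for a correlation, values were centred on their strain mean and correlated over the 10 arrays, which leaves out the difference the members were chosen by. Pearson's r was above 0 for 14 of the 15 pairs among the 6, with a median of 0.62 (0.74 over the shared slide's 8 arrays), and for 13 of 18 pairs between a brighter and a dimmer member, with a median of 0.12. The sets were not parted member by member. With the 6, ASCRPR010262 had r of 0.13 to 0.60, where ASCRPR008220 and ASCRPR009271 had -0.19 to 0.26. ASCRPR004523 had -0.07 to 0.53 with the rest of the 6. The 3 pairs of dimmer members had -0.15, 0.11 and 0.36. Arrays share their scaling, so values on an array can move together for that reason. The median over all pairs of the 13908 circRNAs was 0.08 (quartiles -0.44 and 0.56), and 54.0 percent of these pairs were above 0. Over pairs of the 168 circRNAs in the level range of the 6 the median was 0.18 (quartiles -0.38 and 0.67), with 55.9 percent above 0.

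WKY1-5 and WKY4-1 marked the ends in WKY: WKY1-5 was the highest WKY array for 5 of the brighter 6 and WKY4-1 the lowest for 5 of them. In SHR, SHR2-1 was the highest for 4 of the 6. By rank the upper ends differed: SHR3-4 was the best SHR array for each of the 6. WKY1-5 had the best WKY rank only for ASCRPR004523 and ASCRPR005960, and WKY1-3 had it for the others. Averaged over the 6, the centred level was 0.23 on WKY1-5, -0.32 on WKY4-1 and 0.27 on SHR2-1. WKY4-1 also had the highest median circRNA signal of the 10 arrays, at 162 intensity units, and SHR2-1 the lowest but one, at 69.5. Its part in the covariation was not tested.

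Of the 36 pairs, 1 passed the test after adjustment: ASCRPR003230 and ASCRPR005457, with r = 0.76 (exact permutation within strains, two-sided, p = 0.000486) and Spearman's rho = 0.96 (p = 0.000764). Adjusted over the 36 pairs these were 0.0175 and 0.0275, and r was 0.91 without SHR2-1 and WKY4-1 and 0.81 within the shared slide. The highest r, 0.93 between ASCRPR013623 and ASCRPR005960 (exact permutation p = 0.00347; rho = 0.94, p = 0.00347), missed the threshold after adjustment (0.0625 for both), and was 0.86 without SHR3-3 and WKY4-1. Between ASCRPR005457 and ASCRPR013623 r was 0.84 (exact permutation p = 0.0278, adjusted 0.216; rho = 0.71, p = 0.0338, adjusted 0.230), but 0.54 without SHR2-3 and WKY4-1, and so rests largely on these arrays. The smallest p the permutations can give is 6.94e-05.

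ASCRPR004523 was the exception among the 6. Its r with ASCRPR010484 was -0.07 (exact permutation p = 0.856, adjusted 0.978; rho = 0.02, p = 0.975, adjusted 0.975), and -0.17 without SHR3-1 and WKY4-1. SHR3-3 was the lowest SHR array for ASCRPR004523 and the highest for ASCRPR010484, so that the level of ASCRPR010484 exceeded that of ASCRPR004523 by 1.32 there. On WKY4-1 the difference was -0.09. The level of ASCRPR005457 minus that of ASCRPR013623 stayed between -0.01 and 0.43 on the 10 arrays. The SD of that difference within strains was 0.12, where each of these 2 circRNAs had an SD of 0.21 and 0.22 within strains.

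**Figure D5:**
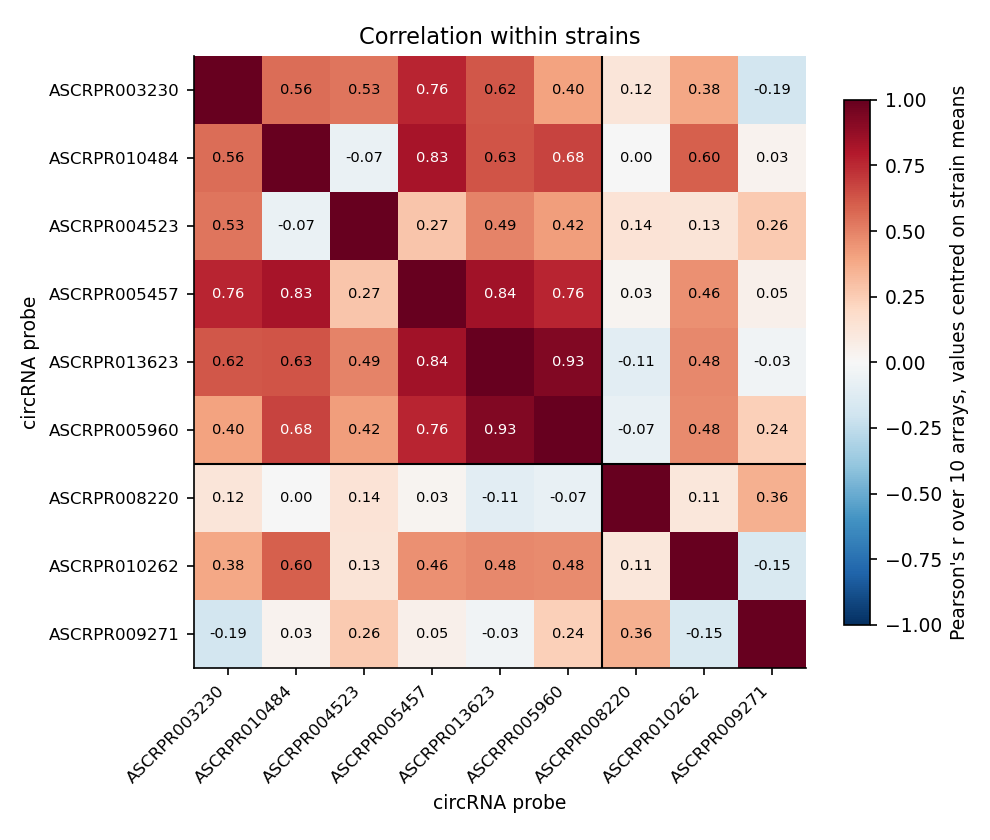
Pearson's r between the levels of the 9 circRNAs over 10 arrays after centring on strain means (colour and numbers); lines separate the 6 brighter from the 3 dimmer members. The 15 pairs of the upper left block have a median of 0.62, with ASCRPR004523 the weakest partner, and the 18 pairs between the blocks a median of 0.12.

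The covariation of the 6 depended on how arrays were scaled. Subtracting each array's median in place of its 75th percentile gave a median r of 0.81 over the 15 pairs, the lowest being 0.31, and a median of 0.13 over the 168 circRNAs of the same level range. With quantile normalization the median r of the 15 pairs was 0.91, with normexp 0.91 and in the authors' table it was 0.92, where the lowest of the 15 was 0.82. Over the 168 circRNAs the medians were then -0.03, -0.03 and -0.02. The spread of the 6 within strains differed too, with a median SD of 0.22 from the processed signal, 0.30 with the array median subtracted and 0.57 after quantile normalization.

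Other circRNAs with a pattern like that of the 9 were sought by Pearson's r over 10 arrays with the members' mean centred level. The most alike were ASCRPR013444 (r = 0.92), ASCRPR005230 (0.89) and ASCRPR011588 (0.89). As the pattern of the 9 is mostly the difference between strains, these too were higher in SHR, by 1.40, 0.76 and 0.48 on the log2 scale, and 0 of the 3 passed the test. After centring on strain means the most alike were ASCRPR004484 (r = 0.94), ASCRPR005298 (0.90) and ASCRPR004343 (0.89). These were picked for the highest r among all non-member circRNAs over 10 arrays, so their r are high by choice and were not tested. Their log2 fold changes were 0.14, 0.11 and 0.57, below the 1.19 of ASCRPR008220, the member with the smallest difference, and 0 of these 3 passed the test.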

How the data were processed

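Gland RNA of 5 SHR and 5 WKY samples was hybridised to Agilent arrays of 1 colour (Cy3), 1 array per sample. Per the file headers, Agilent Feature Extraction 11.0.1.1 gave the deposited spot intensity on a linear scale, background-subtracted and detrended; its other marks of 0 or 1 per spot were used as deposited. The authors' value table holds log2 values; the submitters' processing notes name limma, with its normalization not stated in the sources used here. Log2 processed intensity was averaged per probe without control and outlier spots, and each array's 75th percentile over 14227 non-control probes subtracted. Of these, 14178 probes well above background on at least 5 arrays were tested, SHR minus WKY, in limma 3.58.1 (R 4.3.3; two-sided; Benjamini-Hochberg over all tested probes; threshold 0.05), after tests on simulated data. Plots used matplotlib 3.10.9. Named were the 9 members, the 3 circRNAs just outside the threshold, the 3 most alike over 10 arrays and the 3 most alike within strains. The members, lists and alternatives were chosen with earlier results of these data known. Labels do not tie arrays to separate animals, so p-values measure the spread between these arrays; their number limits the precision. Marker lists for gland, immune, endothelial, stromal and nerve cells and for circRNA formation had 0 members among the named transcripts. Alternatives were other background corrections, scalings, filters and variance models, the authors' table, slide, row and name blocks, and leaving out arrays.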

Additional observations from a re-analysis of the deposited data

Results flagged for a closer look

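An array apart from its strain's other 4 occurred in 4 of the 20 groups of 5 examined, where chance gives about 1. The groups share their arrays and are not independent. For ASCRPR003230, SHR2-1 was at 6.41 against 5.76 to 5.89 for the rest of SHR, so that the gap was 0.811 of the range. For the same circRNA WKY4-1 was at 4.08 against 4.28 to 4.35 (0.747). ASCRPR005457 had WKY4-1 at 3.12 against 3.60 to 3.75 (0.762). ASCRPR008220 had SHR2-3 at 0.42 against 0.66 to 0.73 (0.766).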

How the results depend on the processing

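All 9 kept their direction under 24 alternatives, which leaving out arrays could not change, since the strains never overlapped. Between 0 and 9 of them were called: 3 with normexp, 3 from the authors' values, 4 with a trended and robust variance, 0 with slide and row blocks together, where 3 SHR arrays stand against WKY4-2 alone, and 5 to 8 without single arrays. ASCRPR005960 was called under 23 of the 24, ASCRPR004523 and ASCRPR009271 under 9 each. The median r of the 36 pairs was 0.371; with normexp it was 0.693, from the authors' values 0.697, and 0.291 to 0.409 without single arrays. For the 15 brighter pairs it was 0.908, 0.905 and 0.923 with normexp, quantile normalization and the authors' table, 0.807 with median centring, and 0.548 to 0.669 without single arrays. The gap between the sets in SHR was 5.19 with normexp and 5.79 with quantile normalization; in WKY it was 3.88 with normexp and 4.01 in the authors' table. The mean log2 fold change of the 6 exceeded that of the 3 by 1.31 with normexp, 0.748 with quantile normalization and 1.54 in the authors' table, and by 0.341 to 0.472 without single arrays. No paired analysis was possible because the strains share no array numbers in the labels. All 9 were well above background on every array, as were 13430 of the 14145 circRNA probes, but the folds of the dimmer 3 depended on the processing. ASCRPR009271, whose dimmest spot had a median of 44 over a local background of 16, went from 1.37 to 0.68 with normexp (log2). In the authors' table it was 0.62, and in both it lost its call. The normexp setting changed the spot value, background model, added constant and scaling together, so the part of the background treatment alone was not tested.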
